A study of Mus musculus with 96 samples.

Results

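Slc4a1-positive cells of the CFUE sort gate were set against the Slc4a1-negative cells of the same gate in mouse fetal liver. The sides were chosen by the reads of Slc4a1 alone. Wells of the gate with at least 50000 reads and at least 7000 detected genes were kept, and were called positive from 10 Slc4a1 reads on and negative below that. This gave 12 positive and 10 negative cells, 22 of the 24 CFUE wells and of 96 wells in all. Slc4a1 itself is therefore no finding, and every other gene is described as higher or lower between sides made this way.

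The wells came from 1 plate of C57/Bl6J fetal liver at embryonic day 14.5, with 1 sorted cell and 1 Smart-seq2 library (full-length cDNA from a single cell) in each. Both CFUE sides share strain, age, lineage depletion, the stain for Kit, CD71 and CD24, and the gate itself. The only other gate used here is the upper intermediate one, the neighbour of CFUE in the sort, named for 50 to 60% of CD71 and CD24 expression, of which 24 cells were kept. The labels name no treatment and tie no cell to an animal, so the cells of a gate count as 1 sample and no test, standard error or p-value is given.

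Erythroid progenitors of the CFU-E stage depend on erythropoietin and on Kit ligand, divide rapidly, and pass into terminal differentiation, in which globin, heme and the membrane skeleton are built up. Slc4a1 encodes band 3, the chloride-bicarbonate exchanger that makes up much of the red cell membrane and ties it to the spectrin skeleton through ankyrin. Its transcript is a late one within this series of stages, and heme is made by a chain of mitochondrial and cytosolic enzymes that starts, in red cell precursors, with Alas2.

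Depth was close between the sides. The 12 positive cells held 1451360 to 1741614 reads and a median of 9226.5 genes with a read, and the 10 negative cells held 1403173 to 2060115 reads and a median of 9325 genes. Levels are given as CPM, the reads of a gene per 1000000 reads of its well or, for a side, of its wells summed. Ratios carry an exact 95% interval that covers counting error only, and reads without molecular identifiers do not count single molecules. By counting error alone, a count of 0 in a single cell allows a level of up to 1.46 to 2.14 CPM, depending on its depth. That bound does not cover transcripts missed before sequencing, so a 0 does not show absence from the cell. The sides lay unevenly on the plate, with 3 positive and 7 negative cells in its upper rows (A to D), and 9 positive and 3 negative cells in its lower rows (E to H). Ratios are therefore also given within the upper and within the lower rows.

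The markers of the label are described first. They were chosen with earlier results of these data known, so they do not test it. Slc4a1 (chromosome 11, 102348824 to 102366203, minus strand, GRCm38) had a lowest value of 12.2, a median of 236 and a highest value of 632 CPM in positive cells, against 0, 0.639 and 3.56 CPM in negative cells. Just inside the minimum lay well H11 with 18 reads (12.2 CPM), and just outside it lay well A10 with 5 reads (3.56 CPM). The positive side was thus a range of levels and not an even class, and its next members above H11 held 53 and 135 reads.

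Hba-a1 encodes alpha globin (chromosome 11, 32283511 to 32284465, plus strand) and ran from 209 through a median of 1542 to 3076 CPM in positive cells, against 18.8, 97.7 and 2075 CPM in negative cells. Summed, it stood at 1423 against 312 CPM, a ratio of 4.57 (interval 4.43 to 4.71). All 12 positive cells lay above the negative median, yet only 2 lay above every negative cell. Negative well A10 held 2911 Hba-a1 reads, 59.0% of those on the negative side, beside its 5 reads of Slc4a1. Without A10 the highest negative cell stood at 425 CPM, 11 of 12 positive cells lay above all 9 others, and the ratio was 10.1 (interval 9.70 to 10.6). A10 was also the kept CFUE cell with the fewest genes, at 7422.

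Hbb-bs, an adult beta globin gene (chromosome 7, 103826534 to 103828096, minus strand), had 4.02, 189 and 1724 CPM as its lowest, median and highest positive cells, against 0.585, 5.16 and 132 CPM in negative cells. Its ratio was 22.6 (interval 20.1 to 25.4), and 53.7 (interval 44.6 to 65.1) without A10, which held 61.7% of the negative reads. Positive wells H12 and H11 were low in it, at 4.02 and 5.41 CPM, so these overlapped the negative cells. Trim10, a gene of a tripartite-motif protein of erythroid cells (chromosome 17, 36869574 to 36877833), was at 186 against 52.3 CPM, a ratio of 3.55 (interval 3.29 to 3.84). All 12 positive cells had 67.8 CPM or more of Trim10, while the negative cells ran from 0 to 200 CPM and overlapped them widely. Each marker of the label was thus higher on the positive side, and only Slc4a1, which made the sides, kept all cells apart.

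**Figure D1:**
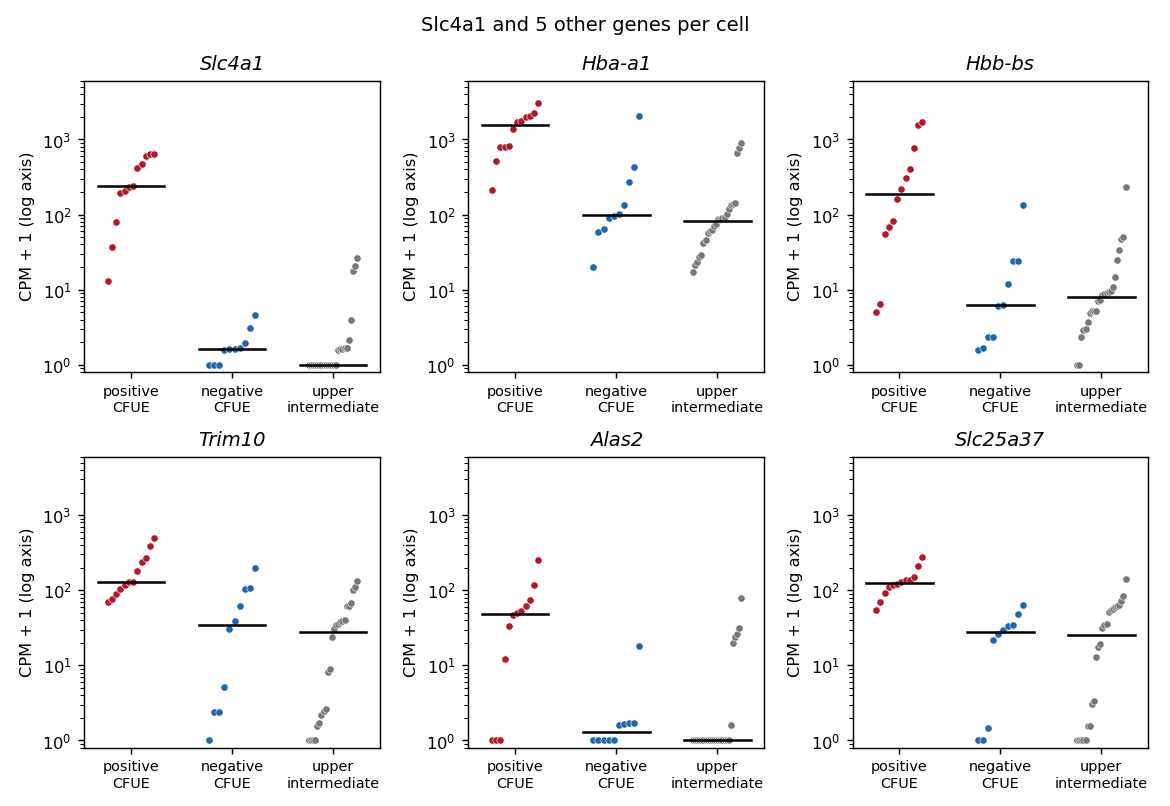
Levels of Slc4a1 and 5 other genes in each cell, as CPM plus 1 on a log axis, for the 12 Slc4a1-positive CFUE cells, the 10 Slc4a1-negative CFUE cells and the 24 cells of the upper intermediate gate. Points are cells, ordered by level within a group, and lines are medians, which for Hba-a1 stand at 1542, 97.7 and 80.4 CPM before the 1 is added.

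The largest ratio of any named gene belonged to Alas2, the erythroid form of the enzyme that starts heme synthesis (chromosome X, 150547375 to 150570638, plus strand). It had a lowest value of 0, a median of 47.7 and a highest value of 252 CPM in positive cells, against 0, 0.301 and 17.2 CPM in negative cells. Summed, it was at 56.6 against 1.90 CPM, a ratio of 29.9 (interval 20.8 to 44.5). The 3 positive cells with the least Slc4a1 (H12, C11 and H11) held no Alas2 read, and the other 9 held 11.04 CPM or more. On the negative side the single well B11 held 86.7% of its 30 reads, and without that well the ratio was 203. Hbb-bt, the other adult beta globin gene (chromosome 7, 103812524 to 103813996, minus strand), was at 269 against 17.8 CPM, a ratio of 15.2 (interval 13.4 to 17.2), with 10 of 12 positive cells above every negative cell.

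The globin genes and Alas2 are among the leading genes of the positive side, and the 130 bases before each RefSeq start (GRCm38.p6) are shown, 5′ to 3′ on the gene's strand. Capitals mark 2 motifs, each searched on both strands. The GATA-factor motif was AGATAA, present as its reverse complement in the Alas2 window. The CACC-box motif, of the kind Klf1 binds, was CCNCNCCC. The windows are chrX:150547287-150547416 for Alas2, chr7:103827929-103828058 for Hbb-bs, chr7:103813924-103814053 for Hbb-bt and chr11:32283542-32283671 for Hba-a1. GENCODE M21 places the outermost start of each gene further upstream, so part or all of each window lies inside the gene as annotated there.
Alas2: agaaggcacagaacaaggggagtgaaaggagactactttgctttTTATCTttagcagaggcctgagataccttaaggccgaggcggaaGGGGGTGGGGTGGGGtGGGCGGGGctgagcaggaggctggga
Hbb-bs: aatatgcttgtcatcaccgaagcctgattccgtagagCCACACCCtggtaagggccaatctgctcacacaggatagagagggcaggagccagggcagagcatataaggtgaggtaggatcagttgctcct
Hbb-bt: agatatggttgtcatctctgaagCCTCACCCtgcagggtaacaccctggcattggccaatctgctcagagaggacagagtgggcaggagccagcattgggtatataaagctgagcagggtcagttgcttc
Hba-a1: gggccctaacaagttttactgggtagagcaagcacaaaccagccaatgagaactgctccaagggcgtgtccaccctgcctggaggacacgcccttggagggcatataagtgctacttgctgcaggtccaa
The Alas2 window held 1 GATA motif, 86 bases before the start, and 4 CACC motifs within the last 42 bases, the first 3 of them overlapping. The Hbb-bs window held a CACC motif 93 bases before the start and the Hbb-bt window one 107 bases before it, while neither motif was in the letters of the Hba-a1 window. Over the 250 bases before the start, 9 of the 12 leading higher genes that have an entry held the CACC motif and 2 held the GATA motif, with the first listed entry taken for each gene. With any entry of a gene counted, the numbers were 9 and 3. Of all 32851 promoter windows of that length, 45.9% held the CACC motif, 9.99% the GATA motif and 2.78% both. A match describes the letters and is not a bound site.

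Markers of most other cell types were low. The macrophage, neutrophil and monocyte, lymphoid, mast cell and endothelial lists had 0 members at 10 CPM or more on either side, and their summed levels reached at most 35.8 CPM in a positive cell and 23.7 CPM in a negative cell. Of 3 measured megakaryocyte markers, Gp9 and Vwf were higher and Gp1ba lower, all at 22.1 CPM or less. Hepatoblast transcripts were present in all cells. Their 10 genes summed to 3.34 to 421 CPM with a median of 114 CPM in positive cells, against 54.2 to 193 CPM with a median of 85.4 CPM in negative cells. Alb, albumin, was at 53.2 against 20.2 CPM. Their part in the results below was not tested. Mitochondrial transcripts made up 1.10 to 2.47% of reads (median 2.01%) in positive cells, against 1.37 to 4.21% (median 1.58%) in negative cells.

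Sex-linked transcripts showed cells of both sexes on both sides, and hence of more than 1 embryo. Of the positive cells, 4 had 10 or more Xist reads and 8 had 10 or more reads of 4 Y-linked genes. Of the negative cells, 6 had Xist, 3 had Y-linked reads and 1 (well E10) had both. The part of this mix in the results was not tested. Counts within cells of 1 kind were made for 10 of the lists, and are given where they lie more than 1.5 times from the count over all cells.

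Apart from Slc4a1, 7795 genes reached 10 CPM on either side and are called measured. Of these, 1256 (16.1%) were 1.5-fold or more higher in positive cells and 1157 (14.8%) were 1.5-fold or more lower. At 2-fold, 596 (7.65%) were higher and 480 (6.16%) lower. The median log2 ratio of all measured genes was -0.04. In 0 of them (0%) did every positive cell lie above every negative cell, and in 0 (0%) below. The lists below are read against these shares. In cells with Y-linked reads alone 2110 genes were higher and 1785 lower, and in cells with Xist alone 1752 and 1684. List counts within those cells are read against these numbers. Of 157 genes named or listed here and past the fold, 119 stayed past it without any 1 cell, and 38 did not. The 157 include the 30 leading genes and the genes of least overlap described below, which were picked by rules that favour such stability. All 38 were list members outside those picks, so the 119 overstate how stable list members were. For the genes described below, at least 1 cell that ends the call or moves the ratio by more than 1.5 times is named with the value without it. For genes near the fold many other single cells end the call too. Such cells number 11 for Stat5a, 10 each for Rhd, Mpp1 and Hells, and 9 for Urod.

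The leading higher genes had 50 CPM or more in positive cells, 2-fold or more by summed, mean and median level, the same direction in the upper and the lower rows, and no cell with over 40% of the positive reads. In all 112 genes met this rule, and the 15 with the largest ratios are described. After Alas2, Hbb-bs and Hbb-bt came Cdc25b, the phosphatase that opens mitosis by activating Cdk1 (chromosome 2, 131186949 to 131198497). It was at 101 CPM in positive and 7.52 CPM in negative cells, a ratio of 13.5 (interval 11.2 to 16.4). Its median cell stood at 89.6 against 0.633 CPM, although positive well E12 held none of it. Well G11 held 45.4% of the negative reads, and without it the ratio was 22.5.

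Rb1, the retinoblastoma protein that holds back E2F factors (chromosome 14, 73183673 to 73325822), had 14.7, 46.6 and 103 CPM as lowest, median and highest positive cells, against 0, 0.292 and 38.5 CPM in negative cells. Its ratio was 7.03 (interval 5.78 to 8.63), and all 12 positive cells lay above the negative median. Well A11 held 56.6% of the negative Rb1 reads, and without it the ratio was 14.5. Slc25a37, mitoferrin 1, which carries iron into mitochondria (chromosome 14, 69241848 to 69285112), had 52.9, 126 and 277 CPM in positive cells, against 0, 26.7 and 63.4 CPM in negative cells. At a ratio of 5.55 (interval 4.98 to 6.197), it was among the genes with the least overlap, with 11 of 12 positive cells above every negative cell.

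Ift140, a subunit of the intraflagellar transport complex (chromosome 17, 25016085 to 25099495), also had 11 of 12 positive cells above every negative cell. It ran from 118 through 450.1 to 1151 CPM in positive cells, against 17.1, 122 and 201 CPM in negative cells, a ratio of 4.26 (interval 4.06 to 4.49). Rps6ka1, the ribosomal S6 kinase of the MAP kinase pathway, was at 163 against 31.6 CPM, with 10 of 12 positive cells above every negative cell. The other higher genes were Kdm3a (a histone H3 lysine demethylase, ratio 4.65), Hba-a1, Hace1 (a ubiquitin ligase, 4.36), March2 (4.32), Eng (endoglin, a TGF-beta co-receptor, 4.31), Ints6l (4.29) and Hipk2 (a nuclear kinase, 4.17). Eng had 32.7% of its positive reads in well A12, 4 of 12 positive cells above every negative cell, and a ratio of 6.48 without negative well B11.

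On the lower side 58 genes met the rule. Pkm, pyruvate kinase of the muscle type (chromosome 9, 59656368 to 59679375), was one of them. It had 2.30, 65.1 and 498 CPM as lowest, median and highest positive cells, against 54.9, 218 and 1171 CPM in negative cells. Summed, it was at 101 against 402 CPM, 3.999-fold lower in positive cells (interval 3.80 to 4.21), with the largest share of positive reads (39.6%) in well C11 and 6.09-fold lower without it. Its direction was not the same in all cells. Among cells with Y-linked reads alone, 8 positive and 3 negative, its log2 ratio was 0.48.

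Trpv2, a calcium-permeable channel, and Ptpn6, the phosphatase Shp1 that damps erythropoietin receptor signalling, had the most positive cells below every negative cell among the leading lower genes. Trpv2 had 0, 18.6 and 90.6 CPM as lowest, median and highest positive cells, against 50.9, 92.1 and 184 CPM in negative cells, and 9 of 12 positive cells lay below every negative cell. Ptpn6 was at 27.5 against 84.8 CPM, 3.09-fold lower, with 8 of 12 positive cells below every negative cell. Got1, the cytosolic aspartate aminotransferase, was at 25.9 against 97.7 CPM, with 6 of 12 below.

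The other lower genes, from 4.24-fold to 3.35-fold lower, included Fam234a, Elovl5 (a fatty acid elongase), Ddx31 (a helicase of ribosome assembly), Orai3 (a calcium channel subunit), Trub1, Maoa (monoamine oxidase A), Hibch, Sept9, Mettl8 and St6galnac4. Most of their cell values overlapped. Fam234a was 6.75-fold lower without positive well F10, and Sept9 6.98-fold lower without positive well C11. For Orai3 and Mettl8, 0 positive cells lay below every negative cell, because at least 1 negative cell had none of the transcript. Of the 30 leading genes, 10 share exon bases with another annotated gene, 8 of them with one on the other strand, among them Alas2 with Apex2, Cdc25b with Spef1 and Eng with Fpgs. Whether the counting used strand is not given in the sources used here, so reads of such partners cannot be told apart. March2 shares exon bases with Hnrnpm on the same strand, which no strand setting would separate. Hnrnpm had 16339 reads in positive and 12039 in negative cells.

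**Figure D2:**
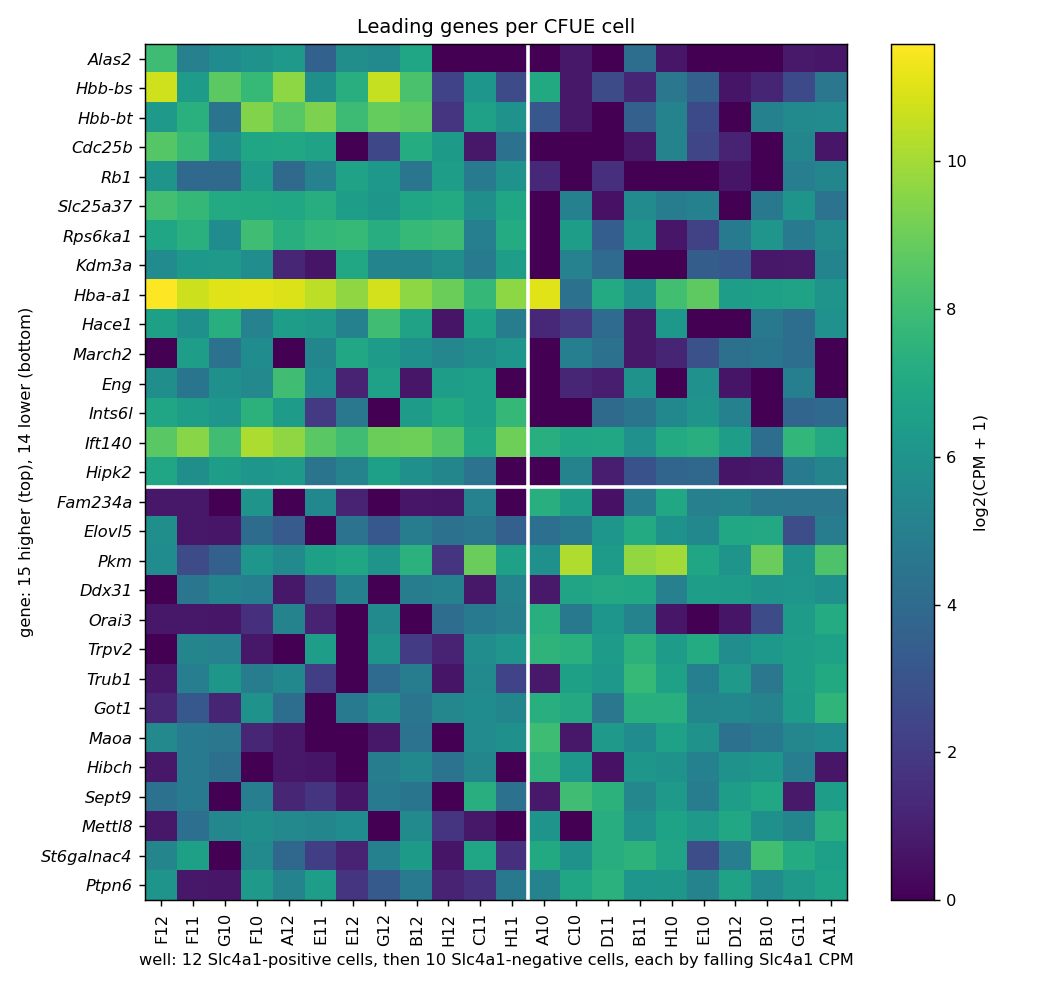
Level of the 15 leading higher genes (upper block) and 14 of the leading lower genes (lower block) in each CFUE cell, as log2 of CPM plus 1. The 12 positive cells stand left of the white line and the 10 negative cells right of it, each by falling Slc4a1 level, and well A10, first on the right, is bright in Hba-a1 at 2075 CPM.

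Genes of heme synthesis were higher as a group. Of 17 measured, 12 were 1.5-fold or more higher and 0 lower, against 16.1% of all measured genes, and the median log2 ratio was 0.77 (0.88 in the upper and 0.63 in the lower rows). Fech, ferrochelatase, which puts iron into the ring, had 621, 1127 and 1539.9 CPM as lowest, median and highest positive cells, against 329.8, 590.0 and 919.5 CPM in negative cells. Its ratio was 1.87 (interval 1.82 to 1.91), all 12 positive cells lay above the negative median, and 9 of them lay above every negative cell.

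The steps of the chain did not differ alike. Ppox (ratio 2.62), Uros (2.03), Cpox (1.59) and Urod (1.52), the enzymes that close, trim and oxidise the ring, were all higher, while Alad, the second enzyme, was at a ratio of 1.32. Abcb10, the mitochondrial transporter that steadies mitoferrin 1, was at 467 against 182 CPM, with 10 of 12 positive cells above every negative cell. Fam210b (2.71) and Slc25a38, the glycine carrier (1.58), were higher as well. Alas1, the form of the first enzyme found in all tissues, stood at 22.4 against 20.2 CPM and did not pass the fold. Urod and Cpox stood near the fold, at 1.45 without well C10 for Urod and 1.45 without well D12 for Cpox.

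Summed over the 17 genes, heme synthesis stood at 5529 to 11745 CPM with a median of 9629 CPM in positive cells, against 4283 to 7941 CPM with a median of 5569 CPM in negative cells. Of the 12 positive cells, 10 lay above every negative cell. The other two were C11 and H11, the positive cells with the least Slc4a1, and the highest negative cell was A10.

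All 4 measured globin genes were higher, and the median log2 ratio was 3.06. Besides those above, Hba-a2 was at 130.3 against 34.1 CPM (ratio 3.83), and 8 of 12 positive cells lay above every negative cell. Reads of the 2 alpha globin genes are hard to assign, since the copies are nearly the same, and this holds for the 2 adult beta globin genes too, so how reads divide within either pair is uncertain. As counted, the split between the 2 adult beta globin genes differed between positive cells. Well F12 had 1724 CPM of Hbb-bs and 75.3 CPM of Hbb-bt, beside 3076 CPM of Hba-a1. Well E11 had 53.4 CPM of Hbb-bs and 634 CPM of Hbb-bt, beside 1396 CPM of Hba-a1. The globin chaperone gene Ahsp was not analysed here.

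Genes of the membrane skeleton, the spectrin mesh under the lipid layer, differed more widely, with 8 of 13 higher and 1 lower, and the median log2 ratio was 0.93 (1.07 in the upper and 0.83 in the lower rows). Dmtn, dematin, which bundles actin at the spectrin junctions, had 67.8, 229 and 375 CPM as lowest, median and highest positive cells, against 0.485, 43.2 and 219.6 CPM in negative cells, a ratio of 4.14 (interval 3.84 to 4.47). All 12 positive cells lay above the negative median, and 6 above every negative cell. Without negative well H10 the Dmtn ratio was 6.40. Tmod1, which caps the short actin filaments (ratio 3.58), beta spectrin Sptb (2.88), ankyrin Ank1 (2.34), Epb42 (1.92) and Epb41 (1.90) were higher too. Ank1 and Epb42 are direct partners of band 3. Add3, gamma adducin, which is not the main erythroid form, was the lower member at 38.9 against 63.2 CPM, and at a ratio of 0.670 without well G10. Mpp1 passed the fold over all cells (1.51) but had a log2 ratio of -0.42 within the upper rows, and a ratio of 1.19 without well G12.

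Of 19 measured surface and transport genes, 10 were higher and 0 lower, and the median log2 ratio was 0.59. Kel, the Kell blood group protein, had 215, 369.8 and 757 CPM in positive cells, against 113, 168 and 299 CPM in negative cells, with 9 of 12 positive cells above every negative cell. Gypc (2.18), the water channel Aqp1 (1.91), Slc43a1 (1.79), Cd47 (1.65), Cldn13 (1.61) and Rhd (1.51) were also higher. Rhag, the Rh-associated glycoprotein, was at a ratio of 1.41 and Slc29a1, the nucleoside carrier, at 0.924, neither past the fold. Rhd was not past it either without well F11, at 1.44. Within cells with Y-linked reads alone, 6 of 19 passed it, where 2110 of all measured genes were higher, beside 1256 over all cells.

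Iron handling genes stayed within the fold. Of 18 measured genes 0 were higher and 0 lower by 1.5-fold, and the median log2 ratio was 0.11. Fth1, ferritin heavy chain, was at 3556 against 2834 CPM and Tfr2, the second transferrin receptor, at 256 against 280.3 CPM. Of the genes whose proteins were sorted on, which are no findings, Tfrc (CD71) was at 909 against 766 CPM, and Cd24a at 1417 against 845 CPM, a ratio of 1.68. Kit was at 202 against 364 CPM, a ratio of 0.556, with log2 ratios of -1.36 within the upper and -0.21 within the lower rows.

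**Figure D3:**
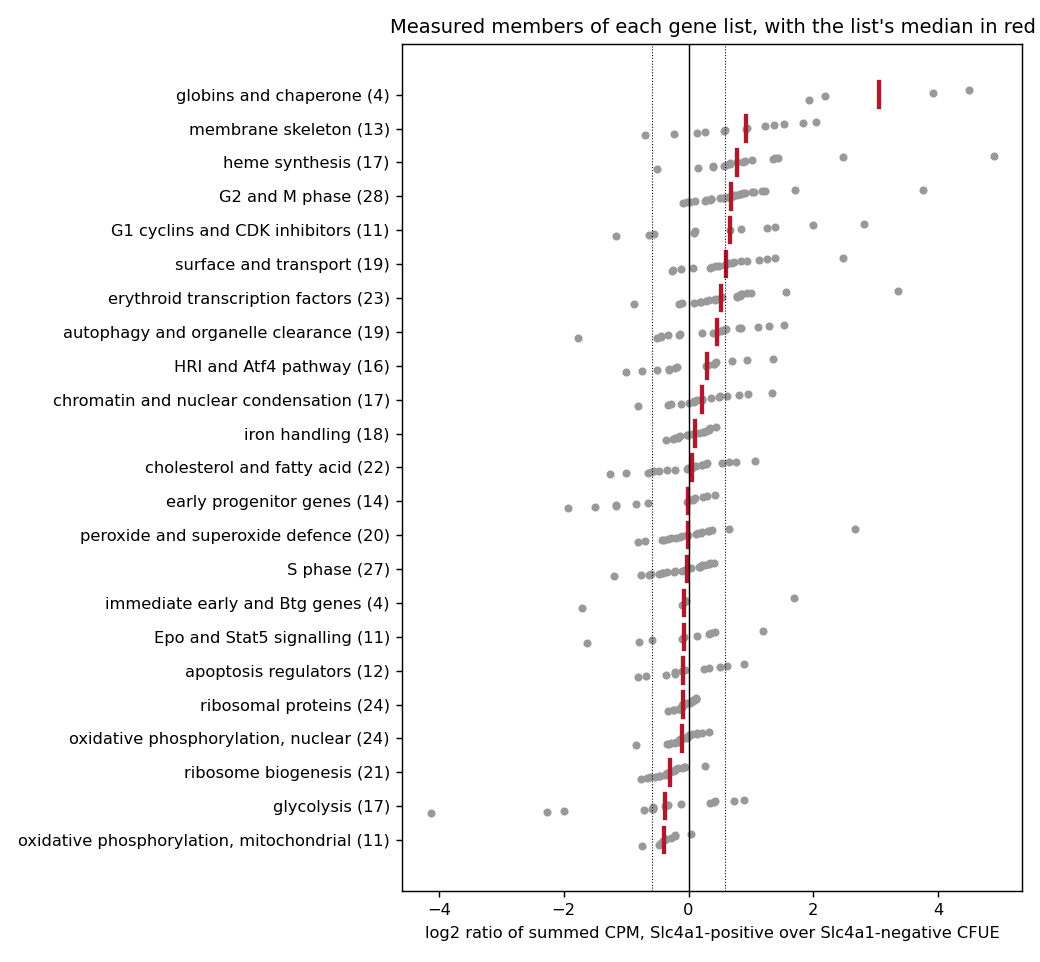
Log2 ratio of summed CPM, Slc4a1-positive over Slc4a1-negative CFUE, for the measured members (grey points, number in brackets) and the median (red bar) of 23 gene lists. Dotted lines mark 1.5-fold, and the medians run from 3.06 for globins to -0.40 for mitochondrially encoded respiratory chain genes.

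Among erythroid transcription factors, 10 of 23 were higher and 1 lower, and the median log2 ratio was 0.51 (0.73 in the upper and 0.42 in the lower rows). The core factors did not pass the fold, with Gata1 at 549.5 against 390.1 CPM (ratio 1.41), Klf1 at 1.26, Tal1 at 1.15 and Gfi1b at 1.21. Higher were Zfpm1, which encodes the Gata1 partner Fog1, at 19.4 against 1.90 CPM, and Sox6 (2.95), Nfe2 (2.01), Zbtb7a (1.90), Foxo3 (1.82), Ldb1 (1.78), Klf3 (1.72) and Klf13 (1.72). Hemgn, hemogen, was at 552 against 312 CPM. Cbfa2t3, the Eto2 corepressor of the Tal1 complex, was the lower member at 15.7 against 28.7 CPM. Zfpm1 was at a ratio of 25.4 without well G11, and Sox6 at 1.96 without well B12. Summed, the list had 10 of 12 positive cells above every negative cell. In cells with Y-linked reads alone 6 of 23 were higher. Of all genes measured in those cells 2110 were higher, beside 1256 over all cells.

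Of 14 early progenitor genes 0 were higher and 6 lower, against 14.8% of all measured genes, with Kit, on which the cells were sorted, among the 6. The median log2 ratio was -0.02, with 6 members above 0 and 8 below, and 3 were lower when 1 Slc4a1 read made a cell positive. Cdk6, the G1 kinase that marks early progenitors, had 34.4, 100.2 and 157 CPM as lowest, median and highest positive cells, against 0, 209 and 370.3 CPM in negative cells, 2.24-fold lower (interval 2.12 to 2.38). All 12 positive cells lay below the negative median, and the log2 ratio was -1.02 within the upper and -1.03 within the lower rows. Myb was at 12.7 against 36.1 CPM and Itga5, an integrin chain, at 6.48 against 24.7 CPM. Car1, carbonic anhydrase 1, was 2.23-fold lower, but well A10 held 49.4% of the negative reads, and without it the fold was 1.24. Itga5 was at a ratio of 0.492 without well D12 and of 0.143 without well A12. Myc (ratio 0.980), Ikzf1 (0.999) and the glucocorticoid receptor Nr3c1 (1.23) did not pass the fold.

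In erythropoietin signalling, 1 of 11 measured genes was higher and 3 were lower. The median log2 ratio was -0.07, and it stood on different sides of 0 within the upper (0.53) and the lower rows (-0.28). The receptor Epor was at 466 against 363 CPM and its kinase Jak2 at a ratio of 1.10. Stat5a, its main transcription factor with Stat5b, was 1.51-fold lower, while Stat5b stood at a ratio of 0.9504. Gab1, a docking protein, was higher at a ratio of 2.29. Together with Ptpn6, the negative regulator Sh2b3 was lower over all cells, though its log2 ratio was 0.90 within the upper rows and its ratio 0.870 without well H10. Stat5a was near the fold, at a ratio of 0.735 without well D11.

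Genes of G2 and mitosis were the other large group on the higher side. Of 28 measured, 16 were higher and 0 lower. The median log2 ratio was 0.68, and 22 of 28 members were above 0 in both sets of rows. The difference was smaller within the lower rows, where the median was 0.25 and 6 members passed the fold. That count lay near the 19.4% of all measured genes that were higher within those rows. The list's median was 0.30 with 11 members past the fold in cells with Y-linked reads alone, and 0.91 with 18 in cells with Xist alone. Of all measured genes 2110 were higher in the former cells and 1752 in the latter, beside 1256 over all cells. Aurka, the Aurora A kinase, had 50.6, 454 and 673 CPM as lowest, median and highest positive cells, against 40.4, 179.7 and 377 CPM in negative cells, a ratio of 2.06. Of the positive cells, 8 lay above every negative cell, and 2 lay below the negative median. Nusap1 (3.26), Kif23 (2.33), Kif11 (2.27), Top2a (1.88), Bub1b (1.77), Ccnb1 (1.65) and Cdk1 (1.63) were among the higher members, while Ccna2 (1.28) and Mki67 (1.28) did not pass the fold. Summed, the list ran from 4673 to 11542 CPM in positive cells, against 4031 to 9598 CPM in negative cells, and 5 positive cells lay above every negative cell. Without negative well D11, Ccnb1 was at 1.49 and Cdk1 at 1.42.

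S phase genes showed no such difference. Of 27 measured, 0 were higher and 4 lower, and the median log2 ratio was -0.03. The lower members were about as frequent as among all measured genes, of which 14.8% were lower. The replicative helicase genes Mcm2 to Mcm7 had ratios between 0.981 and 1.25. The lower members were Ccne2 (78.4 against 180.2 CPM, 2.30-fold lower), Cdt1 (219 against 370.1 CPM), Ccne1 (430.0 against 667 CPM) and Hells. The first 3 act where G1 passes into S phase, the cyclin E genes as partners of Cdk2 and Cdt1 in loading the helicase. The count of lower members was 2 without well D12, where Hells was at a ratio of 0.741. Ccne1 was at 0.695 without well H10 and Cdt1 at 0.700 without well D11.

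Cyclin D genes went different ways. Ccnd3, the cyclin D of erythroid cells (chromosome 17, 47505051 to 47599691), had 325, 581 and 1049 CPM as lowest, median and highest positive cells, against 85.6, 302 and 454 CPM in negative cells. Its ratio was 2.401 (interval 2.32 to 2.48), and 11 of 12 positive cells lay above every negative cell. Ccnd2 was 1.56-fold lower over all cells, at 60.0 against 93.5 CPM, but its log2 ratio within the upper rows was -0.03. The inhibitors Cdkn1b (12.05 against 3.03 CPM), Cdkn2c (13.1 against 4.99 CPM) and Cdkn2d were higher at low levels. With Rb1 and Rbl1, 6 of 11 measured genes of this list were higher and 2 lower. Of 9 measured in the upper rows alone 3 were higher, and by the median cell 2 of 9. Without well F12 the higher ones numbered 3, with Cdkn2c at 1.49, Cdkn2d at 1.39 and Rbl1 at 1.44. Cdkn1b was at a ratio of 2.397 without well G12, Cdkn2c at 6.45 without well B10 and Ccnd2 at 0.724 without well H10.

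**Figure D4:**
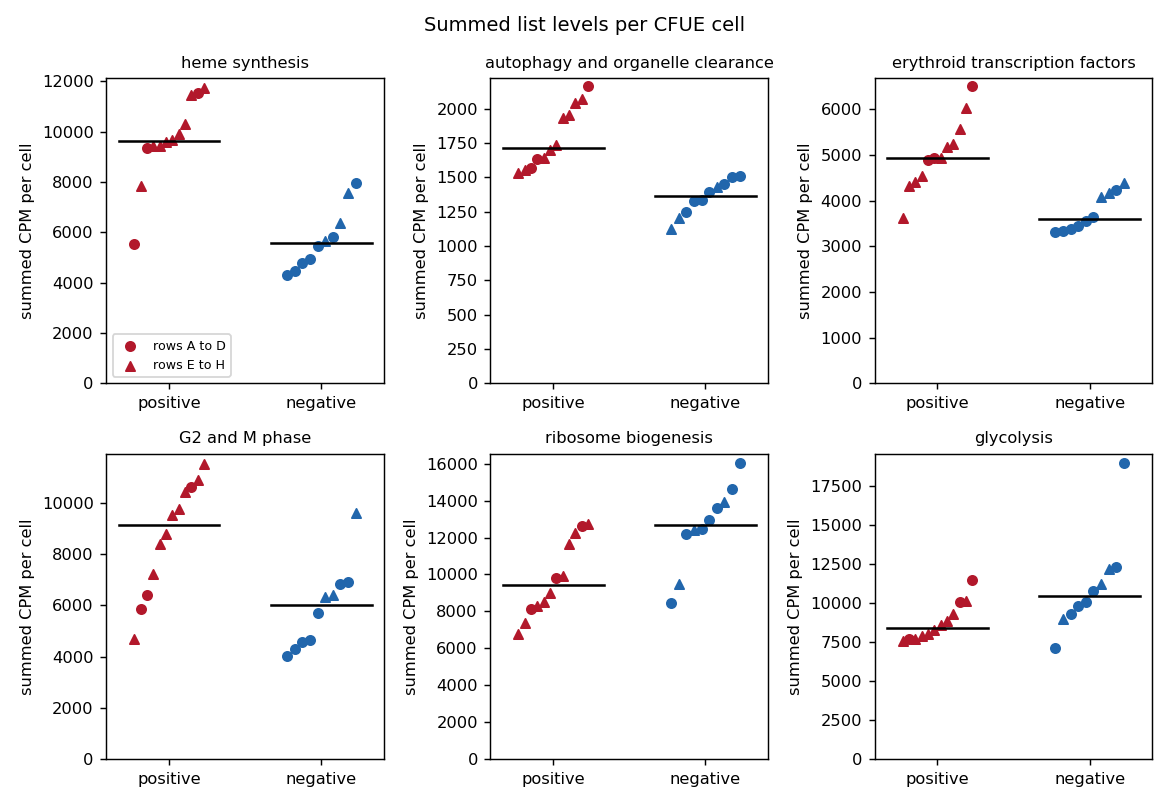
Summed CPM of 6 gene lists in each of the 12 positive (left) and 10 negative (right) CFUE cells, with circles for rows A to D, triangles for rows E to H and lines for medians. All 12 positive cells lie above every negative cell for autophagy and organelle clearance, and the sides overlap in the other 5 lists.

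Ribosome biogenesis genes were past the fold about as often as all genes. Of 21 measured, 3 were lower by 1.5-fold, beside 14.8% of all measured genes, and 0 were higher. A log2 ratio under 0 was found in 20 of 21, beside 53.3% of all measured genes, with a median of -0.30 (-0.42 in the upper and -0.18 in the lower rows). Npm1, nucleophosmin, had 1687, 2449 and 3852 CPM as lowest, median and highest positive cells, against 2579.6, 3923 and 4671 CPM in negative cells. All 12 positive cells lay below the negative median and 7 below every negative cell, although the ratio of 0.688 did not pass the fold. Ddx21 (1.59-fold), Wdr12 (1.53-fold) and Rrp9 (1.70-fold) were lower past it, though Wdr12 was at a ratio of 0.705 without well G12 and Ddx21 at 0.682 without well B10. All 24 ribosomal protein genes stayed within 1.5-fold, with ratios of 0.799 to 1.09.

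In glycolysis the 2 pyruvate kinase genes stood on different sides. Pklr, the liver and red cell pyruvate kinase, had 353, 517 and 738 CPM as lowest, median and highest positive cells, against 200.3, 314 and 482 CPM in negative cells, a ratio of 1.66, while Pkm was lower. Bpgm, which makes 2,3-bisphosphoglycerate in red cells, was at a ratio of 1.85 over all cells and a log2 ratio of -0.20 within the upper rows. Eno1, enolase 1, was at 619 against 1009 CPM, with 8 of 12 positive cells below every negative cell and a ratio of 0.708 without well C10, and Ldha, lactate dehydrogenase A, at a ratio of 0.668. Of 17 measured genes 2 were higher and 4 lower, and the median log2 ratio was -0.38. The lower count depended on single cells, being 2 without well C10 and 8 without well C11. It was 0 among cells with Y-linked reads alone, where the median was 0.13, and 7 among cells with Xist alone. Of all measured genes 1785 were lower in the former cells and 1684 in the latter, beside 1157 over all cells.

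Nuclear genes of the respiratory chain differed little, with 0 of 24 higher, 1 lower and a median log2 ratio of -0.10. The lower one was Cycs, cytochrome c, at 173 against 309 CPM, and at a ratio of 0.687 without well A10. The 11 measured mitochondrial genes had a median of -0.40 (-0.25 in the upper and 0.0076 in the lower rows), and -0.15 without well A10, which held 23.1% of the negative reads of mt-Cytb.

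Genes of autophagy and organelle clearance, by which maturing erythroblasts lose their mitochondria, had 6 of 19 members higher and 1 lower, and the median log2 ratio was 0.45 (0.41 in the upper and 0.34 in the lower rows). Summed over the list, positive cells had 1535 to 2169 CPM with a median of 1716 CPM, against 1125 to 1512 CPM with a median of 1361 CPM in negative cells. Every positive cell lay above every negative cell, by a margin of 1535 against 1512 CPM at the closest, and this held for no other of the 23 lists. Bnip3l, the mitophagy receptor Nix, was at 236 against 156 CPM (ratio 1.51). Pink1 (2.90) and Optn (2.46) of the mitophagy pathway, Ube2l6 (2.17), Atg7 (1.79) and Wipi1 (1.74) were higher, and Xpo7, a nuclear exportin, was lower at 9.21 against 31.3 CPM. Bnip3l was at 1.41 and Pink1 at 5.42 without well D11, and Xpo7 at 0.186 without well H11. In cells with Y-linked reads alone 10 of 21 measured members were higher, where 2110 of all measured genes were, beside 1256 over all cells.

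In peroxide defence 2 of 20 genes were higher and 2 lower, beside 16.1% higher and 14.8% lower among all measured genes. Catalase, Cat, was at 316 against 202 CPM, Gclc at 24.8 against 3.92 CPM, and Txnrd1, thioredoxin reductase, at 198 against 346 CPM (1.75-fold lower). Gclc was at a ratio of 11.8 without well E10, and Cat at 1.41 without well F10. In the pathway of HRI, the heme-regulated kinase of translation, 3 of 16 were higher and 2 lower. The counts of neither list stood out from those shares. The kinase gene Eif2ak1 was at 302 against 187 CPM (ratio 1.62) and Ppp1r15a, which recruits the phosphatase that undoes its work, at a ratio of 2.55. Psat1, a serine synthesis enzyme, was lower at 323 against 543 CPM, with 9 of 12 positive cells below every negative cell.

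In the remaining lists, too, counts past the fold did not stand out from all measured genes. Of those genes 16.1% were higher and 14.8% lower. Apoptosis regulators had 2 of 12 higher and 2 lower. Cholesterol and fatty acid genes had 3 of 22 higher and 4 lower, the lower ones including Elovl6 (2.38-fold) and Fasn (1.57-fold, with a ratio of 0.700 without well B10). Chromatin genes had 4 of 17 higher and 1 lower, Lmnb1, lamin B1, at 58.6 against 103 CPM. Of 4 measured immediate early and Btg genes, Btg2, an antiproliferative gene, was higher at 81.5 against 25.4 CPM and Ier2 lower at 9.05 against 29.6 CPM.

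Within the 12 positive cells, Slc4a1, whose reads made the sides, spanned 12.2 to 632 CPM. Some genes and lists followed its order and others did not. Spearman's rho with Slc4a1 CPM was 0.85 for Hba-a1 (Pearson's r 0.85), 0.84 for summed heme synthesis genes (0.74), 0.70 for Slc25a37 (0.71) and -0.62 for summed early progenitor genes (-0.70). It was 0.14 for Hbb-bt, 0.27 for the membrane skeleton, 0.0070 for Klf1, -0.20 for Gata1 and -0.27 for Rb1. Lists not particular to erythroid cells reached similar values, with 0.71 for peroxide and superoxide defence and 0.69 for immediate early and Btg genes. Without the 2 cells farthest from the median Slc4a1 level (F12 and F11), rho was 0.88 for Hba-a1 and 0.78 for heme synthesis. It was then 0.48 for Slc25a37 and -0.73 for early progenitor genes. The cells share a plate and the scaling to their own totals, and rho with total reads was -0.17. These values describe 12 cells of 1 sample and carry no test.

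**Figure D5:**
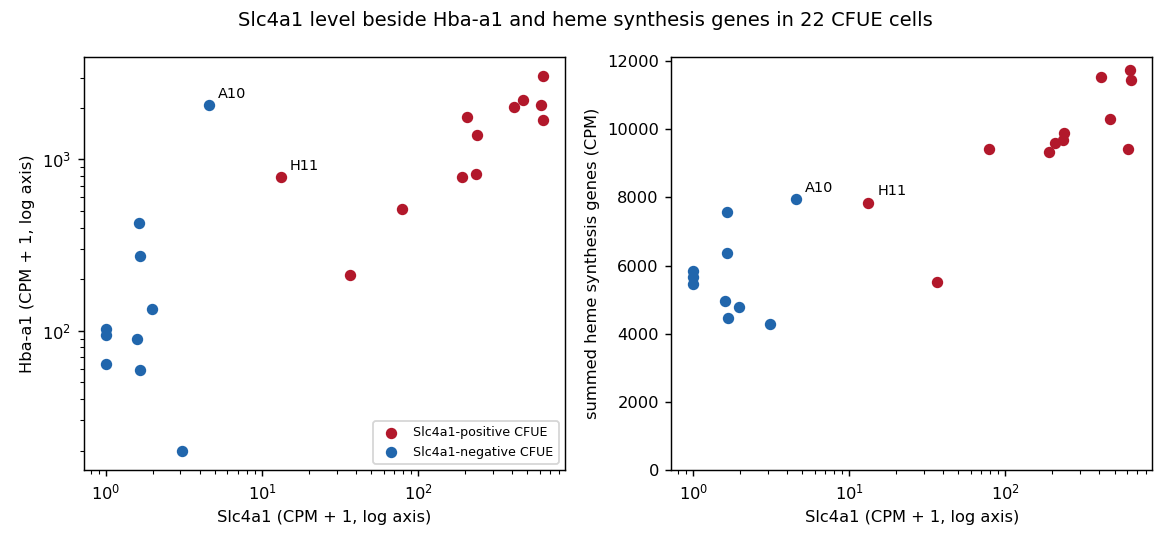
Slc4a1 level (CPM plus 1, log axis) of each CFUE cell beside its Hba-a1 level (left, CPM plus 1, log axis) and its summed heme synthesis genes (right, CPM), for 12 positive (red) and 10 negative (blue) cells. Well A10, with 3.56 CPM of Slc4a1, stands with the positive cells in Hba-a1 at 2075 CPM, and H11, with 12.2 CPM, lies near A10 in the heme sum.

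Levels of the upper intermediate gate were set beside both sides, without a comparison, since the sides were made by selection within the CFUE gate. Slc25a37 was at 132 CPM in positive CFUE, 23.9 CPM in negative CFUE and 32.2 CPM in the upper intermediate gate. Hbb-bt was at 269, 17.8 and 17.6 CPM, and Abcb10 at 467, 182 and 156 CPM, in the same order. In these genes negative CFUE cells stood near the upper intermediate gate. Of 596 genes 2-fold or more higher in positive cells, the upper intermediate level was nearer the negative level on the log2(CPM + 1) scale in 290 (48.7%), and of 480 lower ones in 333 (69.4%). The count of cells with 10 or more Slc4a1 reads, which the rule itself used, was 12 of 22 kept cells in the CFUE gate and 3 of 24 in the upper intermediate gate.

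Genes with the least overlap between the sides were picked with their values in view, as those with 10 or more positive cells outside the range of all negative cells. Of all 7795 measured genes, 10 were such genes above and 8 below. Besides genes named earlier, the ones above included Acp5, acid phosphatase 5, at 384 against 125 CPM (ratio 3.06), Sgk3, a phosphoinositide-dependent kinase, at 84.5 against 23.8 CPM, and Atp8a1, a phospholipid flippase, at 83.7 against 36.1 CPM. Those below were Fastkd1 (a mitochondrial RNA-binding protein, 5.84 against 38.3 CPM), Gla (alpha-galactosidase A, 4.23 against 29.1 CPM), Rab4a (38.5 against 109 CPM), Fam136a (133 against 321 CPM), Zfp706, Cnbp, Hsp90aa1 and Suclg1. Fastkd1 had 11 of 12 positive cells below every negative cell, and was 13.1-fold lower without positive well G10, against 6.57-fold with it. Gla was 38.2-fold lower without positive well E12, against 6.89-fold with it. The 4 last named were within 1.69-fold, with ratios of 0.593 to 0.765.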

How the data were processed

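Whole-number read counts per gene were used as deposited in 1 table of 49466 genes and 96 wells, in which 0 columns lacked a sample. Per the submitters' processing notes, the tools were STAR 2.4 and featureCounts and the build was GRCm38. The strand setting is not given in the sources used here. A surplus empty header cell, absent from the rows, was dropped. CPM is the count of a gene divided by the total of its well or wells, times 1000000. Counts were summed per side, with exact Poisson and conditional binomial (Clopper-Pearson) 95% intervals, which cover counting error only, and a floor of 3 counts for zeros. A gene was measured at 10 CPM on either side and called at 1.5-fold. Leading genes were the 15 largest and 15 smallest ratios among genes at 50 CPM or more in the higher side, 2-fold or more by sum, mean and median, detected in at least 50% of its cells and never with over 40% of its reads from 1 cell, and 1 direction in both sets of plate rows; predicted genes and pseudogenes were left out. Lists add up to 5 members by level past the fold, and further members, single cells and genes of least overlap were named after their values were seen. Some of these genes are not reported here. The members and lists were chosen with earlier results of these data known. Ratios and intervals were first run on simulated sums with Poisson counting error only, which is what the intervals assume. That run checks the calculation and says nothing about spread between cells. Alternatives were other scaling (TMM of edgeR 4.0.16, size factors of DESeq2 1.42.0, R 4.3.3), other minimums, folds and summaries, plate rows apart, and cells left out. Calculations used scipy 1.17.1, pandas 2.3.3 and numpy 2.4.6 under Python 3.11.15, plots matplotlib 3.10.9, coordinates GENCODE M21 and promoters RefSeq. No doublet caller was run on 1-cell wells.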

Additional observations from a re-analysis of the deposited data

Results flagged for a closer look

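Slc4a1 reads were also found in wells that enter neither side. The CFUE well D10 held 130 Slc4a1 reads but had 6361 genes with a read, under the minimum of 7000, and CFUE well C12 held 9 Slc4a1 reads among 14286 reads in all. In the upper intermediate gate, wells C7, E9 and G7 held 28, 21 and 38 Slc4a1 reads, 10 or more each, and these 3 cells were not part of either side.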

How the results depend on the processing

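No test was made, so the values below show only how counts and ratios move. No paired analysis was possible because no test was made and the cells of a gate are 1 sample. Leaving out each cell in turn gave 1168 to 1343 genes higher and 1124 to 1243 lower, with 10 to 13 heme synthesis, 4 globin, 7 to 9 membrane skeleton, 9 to 11 surface, 10 to 12 transcription factor and 14 to 19 G2 and mitosis genes higher. TMM factors gave 1385 higher and 1031 lower, and DESeq2 size factors 1396 and 1019, with the median of all genes moved by under 0.1 on the log2 scale. With a read in both sides as the only filter, 2500 genes were higher and 2599 lower. With 50 CPM they were 442 and 398, with 5 transcription factors higher. At a fold of 2 they were 596 and 480, with 6 heme synthesis, 5 membrane skeleton, 4 surface, 3 transcription factor and 6 G2 and mitosis genes higher. In rows A to D alone 1844 genes were higher and 1743 lower. In rows E to H alone these were 1464 and 1494, with 6 transcription factors and 6 G2 and mitosis genes higher. With a Slc4a1 minimum of 1 read (19 positive and 3 negative cells), 3 membrane skeleton genes and 5 transcription factors were higher, and the log2 ratio was 0.41 for Fam234a, 0.067 for Maoa, 0.035 for Hibch and 0.15 for Kit, all opposite in sign to the main value. In cells with Y-linked reads alone, 2110 genes were higher and 1785 lower, 6 surface genes and 6 transcription factors were higher, and the log2 ratio of Pkm was 0.48. The cause was not tested. Over 34 genes and 578 alternative ratios, these 5 were counted as reversed, which required a main ratio past the fold. The 30 leading genes were picked to agree in direction by sum, mean, median and both sets of rows. Those settings therefore could not reverse them. Of the other alternative ratios, 289 lay outside the counting interval of the main ratio and 284 within it. Genes under 10 CPM on both sides were not compared at this depth.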
